A study of Bos taurus and Sus scrofa with 10 samples.

Results

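The genes described here are 10 members of 2 imprinted chromosome regions, followed through preimplantation development in 2 species, the cow Bos taurus and the pig, Sus scrofa. They were chosen by symbol: PEG10, SGCE, PPP1R9A, PON2, PON3, ASB4, CALCR and TFPI2 from the PEG10 region, and MEST and COPG2 from the MEST region. All 10 had an entry in both deposited gene tables, which list 22845 entries for cow and 21867 for pig, and none of their symbols was repeated. RNA was sequenced from oocytes, embryos of 2-4 cells, embryos of 8-16 cells, morulae and blastocysts. A single library stands for each stage and species, so the 10 libraries have no replicates. The labels give no treatment, no strain, no way of fertilization or culture, and no number of oocytes or embryos per library.

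Imprinted genes are expressed mainly from the copy inherited from 1 parent, and which copy is active follows DNA methylation marks set in the egg or the sperm. PEG10 and SGCE are paternally expressed neighbours transcribed away from each other from 1 shared start region that carries such a mark, while genes farther out in the cluster have been described as maternally expressed in some mouse tissues, chiefly placenta and brain. MEST is a paternally expressed gene whose 3′ end faces that of COPG2. The libraries hold no information on parental copies, so all values below are summed over both copies. In libraries of whole embryos, fewer cells of a type and less RNA per cell cannot be told apart.

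Levels are RPM, the reads of a gene for every 1000000 reads in its library. They are not divided by gene length, so they serve to follow a gene over the stages and not to rank genes. Brackets hold 95% Wilson intervals, which cover counting error only. Library totals ranged from 3002751 to 14182046 reads, and the 3 reads that a count of 0 allows equal 0.212 RPM in the cow blastocyst library and between 0.552 and 0.999 RPM in the other libraries. The stage labels were checked with marker genes. The summed level of 10 oocyte markers was 6613 RPM in the cow oocyte library and 0.0705 RPM in the cow blastocyst library, and 8218 and 22.3 RPM in the same libraries of pig. The summed level of 10 trophectoderm markers was 144 RPM in the cow oocyte and 4364 RPM in the cow blastocyst, with 28.1 and 10524 RPM for pig. Of 4 epiblast markers with a pig entry, NANOG, SOX2 and GDF3 had 0 reads in the pig blastocyst library and LIN28B was at 3.75 RPM. All 5 with a cow entry had 1 RPM or more in the cow blastocyst library, 199.7 RPM in sum.

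From oocyte to blastocyst PEG10 and SGCE fell and PON2 and ASB4 rose in both species, while the other members passed the threshold in 1 species or, in the case of cow TFPI2, had no reads to compare. Entries with 1 RPM or more in either library entered a comparison, and they were called changed when log2(RPM + 1) differed by at least 2, a 4-fold step on that scale. In cow 9 members were compared, of which PEG10, SGCE, MEST and COPG2 fell and PON2 and ASB4 rose. The cow PON2 change was 2.00, at the threshold, and its call was lost under median scaling and quantile normalisation. Quantile normalisation also removed the pig PON2 call. The 6 cow calls stand beside 40.2% of all compared entries called in either direction, 21.8% higher and 18.4% lower. In pig all 10 members were compared, of which PEG10, SGCE, CALCR and TFPI2 fell and PPP1R9A, PON2, PON3 and ASB4 rose. There 45.2% of all compared entries were called, 26% higher and 19.2% lower. The median change was -1.82 over the 9 cow members, beside 0.18 over all compared cow entries, and -1.63 over the 10 pig members, beside 0.43. The change had the same sign in cow and pig for 9 of the 9 members compared in both, beside 68.4% of 8567 shared symbols.

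**Figure D1:**
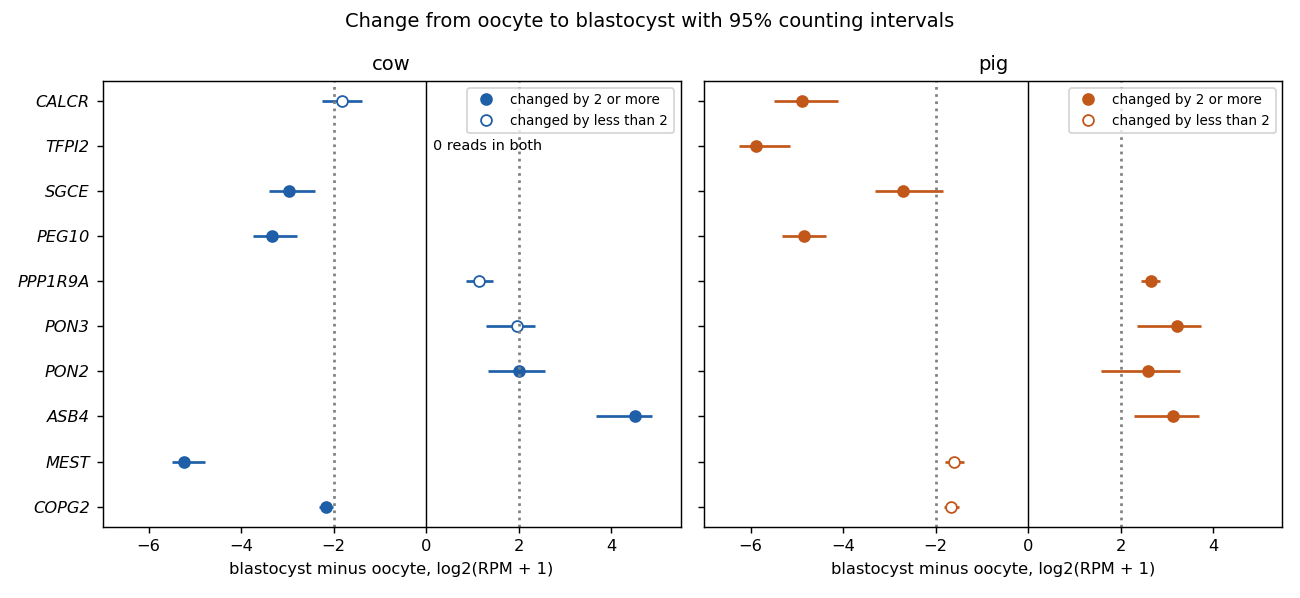
Difference in log2(RPM + 1) between the blastocyst and oocyte libraries (x axis) for each member (y axis), in cow on the left and pig on the right; points are 1 library against 1 library, bars are 95% counting intervals, filled points changed by 2 or more and dotted lines mark that threshold. CALCR, SGCE and PEG10 lie left of 0 and PPP1R9A, PON3, PON2 and ASB4 lie right of 0 in both species.

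PEG10 derives from a retrotransposon, codes for proteins like viral Gag and Pol, and is needed for the placenta in mice. It lies on cow chromosome 4 at 11912009 to 11921418 (UMD3.1) and on pig chromosome 9 at 74474091 to 74486980 (Sscrofa11.1). In cow PEG10 was at 14.0 RPM in the oocyte library (11.06 to 17.7), 12.8 RPM at 2-4 cells, 11.6 RPM at 8-16 cells (9.07 to 14.8), 1.80 RPM in the morula (0.870 to 3.71) and 0.494 RPM at the blastocyst stage (0.239 to 1.02). The first 3 cow libraries had overlapping intervals, and both later libraries lay below all 3. In pig PEG10 was at 253 RPM in the oocyte library (237 to 271), 333 RPM at 2-4 cells, 259 RPM at 8-16 cells, 51.6 RPM in the morula (44.1 to 60.4) and 7.78 RPM at the blastocyst stage (5.41 to 11.2). The pig 2-4 cell library was the highest, the oocyte and 8-16 cell libraries overlapped, and the morula and blastocyst libraries were each lower than the one before. Between oocyte and blastocyst PEG10 fell 28.4-fold in cow (95% counting interval 13.1 to 73.2) and 32.6-fold in pig (22.5 to 48.9).

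The first step at which PEG10 passed the threshold was that from 8-16 cells to the morula in both species, 6.46-fold in cow (2.96 to 16.7) and 5.01-fold in pig (4.22 to 5.99). At that step 11.8% of compared entries were called in cow and 23.3% in pig. SGCE, which codes for epsilon-sarcoglycan, a membrane protein of the dystrophin complex that is mutated in myoclonus-dystonia, did not pass the threshold there, although its start lies 266 bases from that of PEG10 in cow and 130 bases in pig. SGCE stood at 4.42 RPM (2.97 to 6.57) before this step and at 6.92 RPM (4.76 to 10.1) after it in cow, and at 2.84 RPM (1.496 to 5.40) and 3.66 RPM (2.05 to 6.56) in pig. The intervals overlapped in both species. There were thus 2.63 PEG10 reads per SGCE read in the cow 8-16 cell library (1.62 to 4.39) and 0.259 in the cow morula library (0.0953 to 0.610). In pig the same ratio went from 91.0 (47.7 to 200) to 14.1 (7.66 to 28.8).

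Over all stages SGCE in cow stood at 9.53 RPM in the oocyte library, 11.9 RPM at 2-4 cells, 4.42 RPM at 8-16 cells, 6.92 RPM in the morula and 0.353 RPM at the blastocyst stage (0.151 to 0.825). In pig it stood at 7.11, 6.04, 2.84 and 3.66 RPM in the same order up to the morula, and had 0 reads in the blastocyst library. Only the blastocyst library lay apart from all 4 others in cow, and the pig blastocyst library lay below the interval of each of the other 4. Over the whole course SGCE fell 27.0-fold in cow (10.8 to 87.1) and at least 8.83-fold in pig. In cow the fall passed the threshold at the last step only, 19.6-fold (7.46 to 65.3), where 23.4% of entries were called. An earlier cow fall, from 2-4 to 8-16 cells, measured 2.70-fold (1.64 to 4.58), a change of -1.26, under the threshold. In pig the change at the last step was -1.91, under the threshold, where 27.6% of entries were called. It passed with a pseudocount of 0.5, scaled to non-mitochondrial gene reads, or with 0 reads taken as 0. SGCE lies at 11840470 to 11911742 on cow chromosome 4 and at 74402717 to 74473960 on pig chromosome 9. An entry known only by the identifier ENSSSCG00000034276 covers 75.2% of the pig SGCE span on the opposite strand, and its reads in stage order were 24, 19, 9, 9 and 0, beside 24, 25, 9, 11 and 0 for SGCE. How the authors' counting handled strand is not given in the sources used here, so reads of both entries cannot be told apart.

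**Figure D2:**
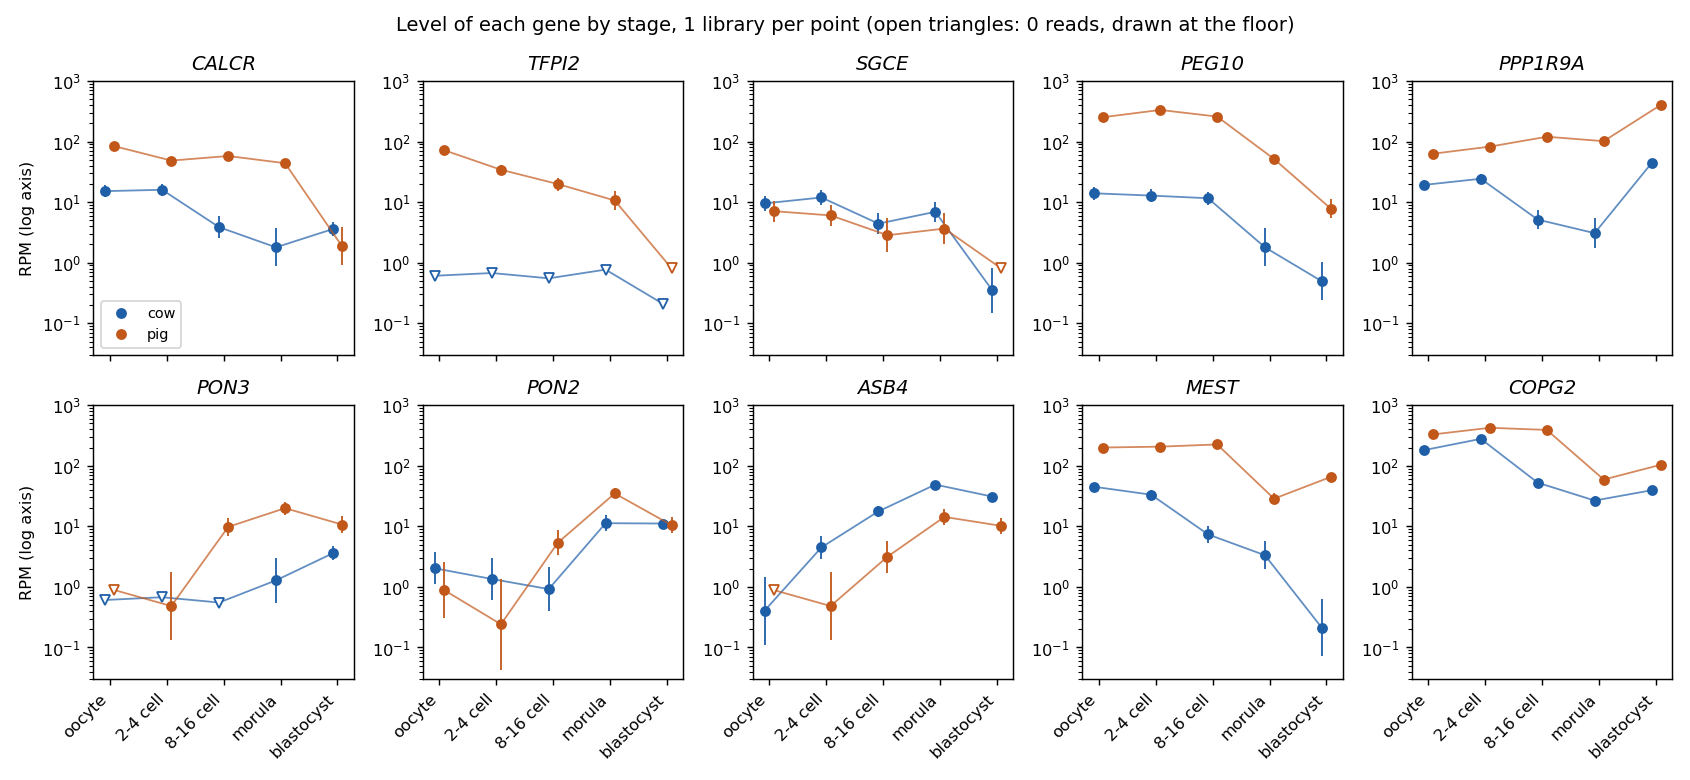
Level of each member in RPM (log axis) at the 5 stages, cow in blue and pig in orange, with 1 library per point, 95% Wilson intervals as bars, and open triangles at the floor of 3 reads where a library had 0 reads. The tables of both species were scaled separately, so the vertical distance between the lines is not a comparison; PEG10 and SGCE end low in both species, while PPP1R9A has its highest point in the blastocyst library.

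CALCR, the receptor for calcitonin, and TFPI2, a secreted inhibitor of serine proteases such as plasmin, lie on the other side of SGCE from PEG10. CALCR spans 10614458 to 10724579 on cow chromosome 4 and 73277785 to 73403466 on pig chromosome 9. In cow it was at 15.2 RPM in the oocyte library (12.1 to 19.1), 16.0 RPM at 2-4 cells (12.7 to 20.2), 3.87 RPM at 8-16 cells (2.53 to 5.91), 1.80 RPM in the morula (0.870 to 3.71) and 3.60 RPM at the blastocyst stage (2.74 to 4.73). The 2 early cow libraries were thus apart from the 3 later ones, which overlapped among themselves. In pig CALCR was at 84.1 RPM in the oocyte library (74.9 to 94.5), 48.6, 57.8 and 44.0 RPM in the next 3 libraries, and 1.88 RPM at the blastocyst stage (0.909 to 3.87). The pig fall passed the threshold at the last step only, where it measured 23.4-fold (11.06 to 59.4). Over the whole course CALCR fell 44.8-fold in pig (21.5 to 112), and in cow it changed by -1.82 on the log2(RPM + 1) scale, under the threshold. The end of pig CALCR overlaps VPS50, a subunit of an endosomal tethering complex, by 2661 bases on the opposite strand. VPS50 had between 391 and 4404 reads in the pig libraries, beside 7 to 284 for CALCR, and its part in the pig CALCR values was not tested.

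TFPI2 was detected in pig only. It spans 11035479 to 11039782 on cow chromosome 4, where all 5 libraries had 0 reads, which allows up to 0.212 RPM in the blastocyst library and up to 0.769 RPM in the shallowest one. On pig chromosome 9 it spans 73684237 to 73689134 and was at 72.2 RPM in the oocyte library (63.7 to 81.9), 34.3 RPM at 2-4 cells (29.1 to 40.4), 19.9 RPM at 8-16 cells (15.6 to 25.5) and 10.7 RPM in the morula (7.55 to 15.0), with 0 reads in the blastocyst library. Each pig library was lower than the one before with no overlap of the intervals. TFPI2 fell at least 89.8-fold from the pig oocyte to the blastocyst library, and at least 13.3-fold at the last step. Cumulus and granulosa cells surround the oocyte, and of 11 of their markers with a pig entry 5 had 1 RPM or more in the pig oocyte library: VCAN (100.7 RPM), STAR (43.2 RPM), GREM1 (17.5 RPM), FSHR (11.25 RPM) and CYP19A1 (4.15 RPM). TNFAIP6, INHA, INHBA and CYP11A1 had 0 reads there. The summed level of the 11 markers was 177 RPM in the oocyte library and 338 RPM in the blastocyst library, and 15 such markers went from 459 to 119 RPM in cow. Their part in the oocyte levels of the members was not tested.

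PPP1R9A codes for neurabin, which ties protein phosphatase 1 to actin. It spans 12038499 to 12381524 on cow chromosome 4 and 74634986 to 74938758 on pig chromosome 9. In cow PPP1R9A was at 19.3 RPM in the oocyte library (15.8 to 23.6), 24.3 RPM at 2-4 cells, 5.15 RPM at 8-16 cells (3.57 to 7.45), 3.08 RPM in the morula (1.76 to 5.38) and 44.0 RPM at the blastocyst stage (40.7 to 47.6). The cow profile thus dipped in the 8-16 cell and morula libraries, whose intervals overlapped. In pig it was at 63.1 RPM in the oocyte library (55.1 to 72.1), 82.6, 120 and 102 RPM in the next 3 libraries, and 402 RPM at the blastocyst stage (382 to 423). No pig library dipped below the oocyte library. PPP1R9A rose 14.3-fold from the cow morula to the blastocyst library (8.13 to 27.8). In pig that step measured 3.95-fold (3.49 to 4.49) and 1.97 on the log2(RPM + 1) scale, just under the threshold, and passed it under median scaling and quantile normalisation. From oocyte to blastocyst PPP1R9A rose 6.37-fold in pig (5.51 to 7.39), and in cow it was 2.28-fold higher (1.84 to 2.86), under the threshold.

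PON2 and PON3 code for paraoxonases, enzymes that split lactones and act against oxidation, and ASB4 codes for a substrate adaptor of a cullin ubiquitin ligase. All 3 had their lowest levels in the first 3 libraries and their highest in the morula or blastocyst library. PON2 (cow chromosome 4, 12493206 to 12520270; pig chromosome 9, 75027097 to 75051434) was at 2.03, 1.35 and 0.920 RPM in the cow oocyte, 2-4 cell and 8-16 cell libraries, 11.3 RPM in the morula (8.41 to 15.2) and 11.14 RPM at the blastocyst stage (9.53 to 13.02). The first 3 cow libraries overlapped, as did the last 2, and the step between them measured 12.3-fold (4.88 to 39.6). In pig PON2 had 3 reads in the oocyte library and 1 read at 2-4 cells, then 5.37 RPM at 8-16 cells (3.35 to 8.60), 35.0 RPM in the morula (28.9 to 42.3) and 10.5 RPM at the blastocyst stage (7.65 to 14.3). Pig PON2 thus peaked in the morula library. It rose 22.2-fold (3.48 to 929) from 2-4 to 8-16 cells, where 4.87% of pig entries were called, and 6.51-fold (3.88 to 11.6) from 8-16 cells to the morula. The oocyte to blastocyst ratio of PON2 was 5.49 in cow (2.91 to 11.7) and 11.8 in pig (3.74 to 59.6).

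PON3 (cow chromosome 4, 12441126 to 12478659; pig chromosome 9, 74990230 to 75017949) had 0 reads in the first 3 cow libraries, 1.28 RPM in the cow morula library (0.548 to 3.002) and 3.60 RPM at the cow blastocyst stage (2.74 to 4.73). In pig it had 0 reads in the oocyte library and 2 reads at 2-4 cells, then 9.79 RPM at 8-16 cells (6.90 to 13.9), 19.98 RPM in the morula (15.5 to 25.7) and 10.7 RPM at the blastocyst stage (7.88 to 14.6). Reads above the floor thus appeared in the 8-16 cell library in pig and in the morula library in cow. The pig rise from 2-4 to 8-16 cells was 20.3-fold (5.16 to 175). Between oocyte and blastocyst PON3 rose at least 12.1-fold in pig. In cow it was at least 5.91-fold higher, a change of 1.96 that did not reach the threshold.

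ASB4 (cow chromosome 4, 12597838 to 12699701; pig chromosome 9, 75110379 to 75203446) had 2 reads in the cow oocyte library and then 4.51 RPM at 2-4 cells (2.92 to 6.96), 17.7 RPM at 8-16 cells (14.5 to 21.6), 48.98 RPM in the morula (42.5 to 56.4) and 31.0 RPM at the blastocyst stage (28.3 to 34.1). No 2 cow libraries overlapped. In pig ASB4 had 0 reads in the oocyte library, 2 reads at 2-4 cells, 3.16 RPM at 8-16 cells (1.72 to 5.82), 14.3 RPM in the morula (10.6 to 19.3) and 10.2 RPM at the blastocyst stage (7.42 to 13.98). The pig morula and blastocyst libraries overlapped. From oocyte to blastocyst ASB4 rose 76.5-fold in cow (21.1 to 634) and at least 11.5-fold in pig. No single step of ASB4 passed the threshold in either species under the main settings. The step from the cow oocyte to the 2-4 cell library came nearest, with a change of 1.97 and a ratio of 11.11 (2.70 to 98.0), in a comparison where 0.374% of entries were called. Under non-mitochondrial or median scaling ASB4 passed from cow 2-4 to 8-16 cells. With a pseudocount of 0.5 it passed from pig 8-16 cells to the morula.

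Along the chromosome, the members that were lower at the blastocyst stage lie on one side of the gap between PEG10 and PPP1R9A and the members that were higher lie on the other, in both species, with cow TFPI2 not compared. The 8 members span 2.09 Mb in cow and 1.93 Mb in pig, in the same order (CALCR, TFPI2, SGCE, PEG10, PPP1R9A, PON3, PON2, ASB4), and the gap measures 117 kb in cow and 148 kb in pig. Genes between and beyond the members did not all follow this division. Within 1500 kb of the start of PEG10, 8 other cow entries were compared, of which 1 rose and 1 fell, and 14 other pig entries, of which 2 rose and 6 fell. The called pig entries followed the division, with the 6 lower ones on the CALCR side and the 2 higher ones on the ASB4 side. The lower ones include the entry that overlaps SGCE. Both called cow entries went against the division, as did BET1 (1.54) and SLC25A13 (-1.65) in pig, under the threshold. COL1A2, a collagen chain gene between TFPI2 and SGCE, rose in cow, from 1.83 to 14.0 RPM, and fell in pig, from 5.03 RPM to 0 reads. CASD1, the named gene nearest to SGCE on that side and an enzyme of sialic acid acetylation, was at 53.1 and 46.3 RPM in the cow oocyte and blastocyst libraries and at 95.04 and 24.9 RPM in those of pig, under the threshold in both. Downstream of ASB4, PDK4, an inhibitory kinase of pyruvate dehydrogenase, rose in pig from 0.592 to 15.0 RPM, and in cow it went from 0 reads to 3.46 RPM, under the threshold. DYNC1I1, a dynein subunit gene beyond PDK4, fell in cow from 48.3 RPM to 1 read and did not pass the threshold in pig. The third paraoxonase gene, PON1, stayed at or below 1.35 RPM in cow and rose in pig from 11.3 to 61.9 RPM, with 12711 bases of its pig span shared with PPP1R9A on the opposite strand.

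**Figure D3:**
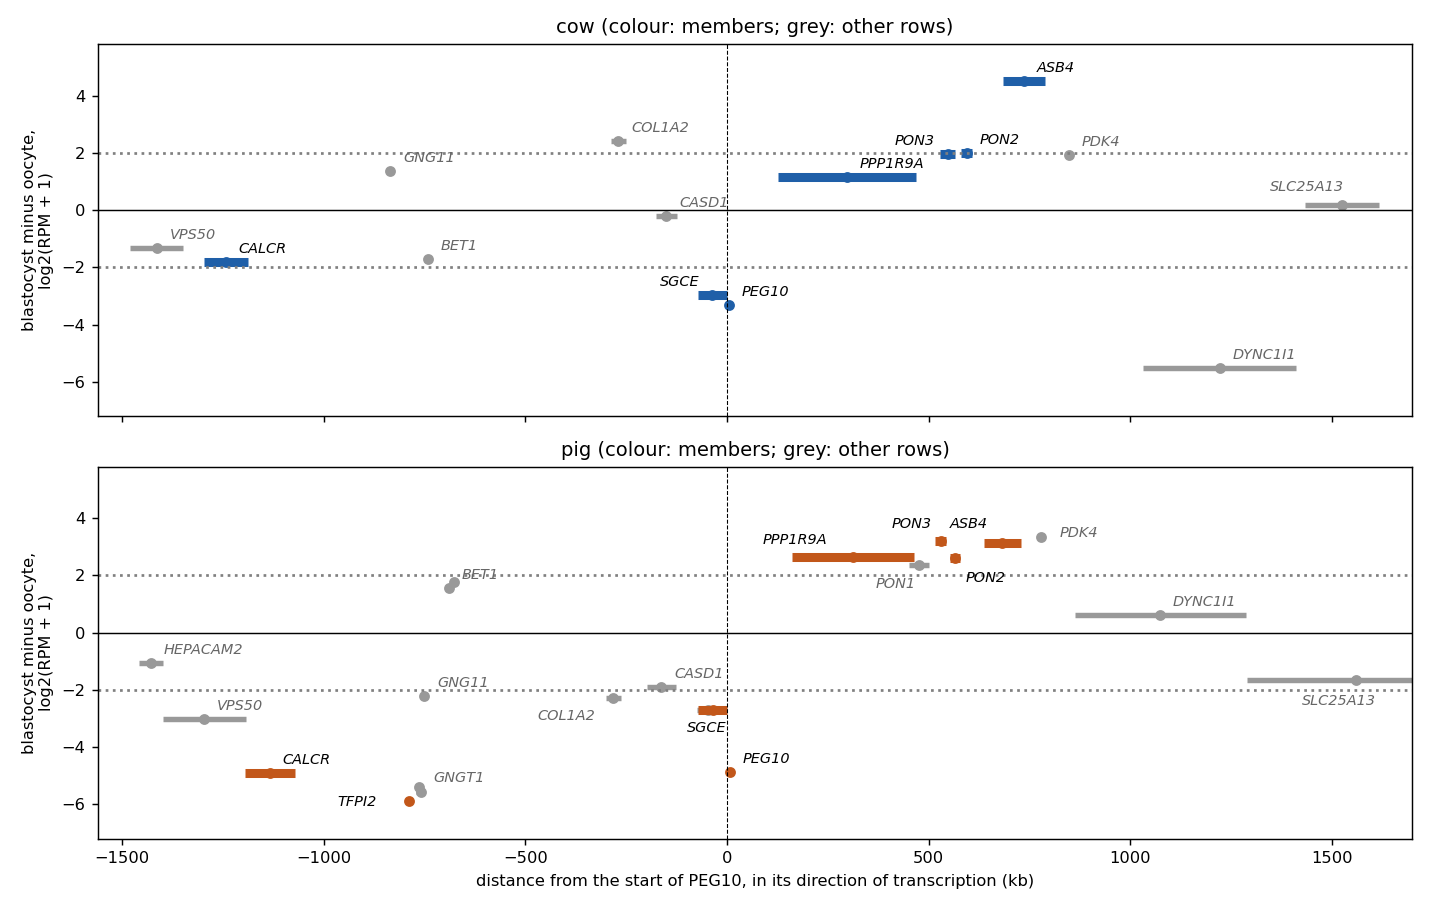
Difference in log2(RPM + 1) between the blastocyst and oocyte libraries (y axis) by distance in kb from the start of PEG10 (x axis), with cow above and pig below; each bar spans 1 gene, members are in colour and other compared entries in grey, and dotted lines mark a difference of 2. Compared members up to PEG10, whose start is the dashed line, lie below 0 and members to its right lie above 0, while grey entries lie on both sides of 0. In pig the grey entries beyond the dotted lines follow the same division as the members, and in cow they do not.

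MEST codes for an enzyme of the hydrolase fold family and is used as a marker of mesoderm. In cow it spans 95066962 to 95079685 on chromosome 4, 230 bases from the end of COPG2, which spans 95079916 to 95209257 on the opposite strand. COPG2 codes for a gamma subunit of the COPI coat of Golgi vesicles. Cow MEST was at 45.03 RPM in the oocyte library (39.5 to 51.4), 33.3 RPM at 2-4 cells (28.4 to 39.2), 7.36 RPM at 8-16 cells (5.41 to 10.03), 3.33 RPM in the morula (1.95 to 5.71) and 3 reads in the blastocyst library (0.0719 to 0.622 RPM). Each cow library was lower than the one before, with overlapping intervals only between 8-16 cells and the morula. Cow MEST fell 213-fold from oocyte to blastocyst (71.9 to 1040), the largest fall among the cow members by both measures.

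Cow COPG2 was at 181 RPM in the oocyte library (170 to 194), 279 RPM at 2-4 cells (263 to 294), 52.7 RPM at 8-16 cells (46.9 to 59.1), 26.7 RPM in the morula (22.0 to 32.3) and 39.4 RPM at the blastocyst stage (36.3 to 42.8). No 2 cow libraries overlapped, and the blastocyst library lay above the morula library. Cow COPG2 fell 4.601-fold from oocyte to blastocyst (4.14 to 5.12). The cow blastocyst library had 30.2% of its reads in mitochondrial genes and the oocyte library 4.402%, which lowers the RPM of all other genes. Scaled to non-mitochondrial gene reads COPG2 no longer reached the threshold, although it remained lower in the blastocyst library. That scaling shifted the median of all genes by 0.42, beside a COPG2 change of -2.17 without it. Per COPG2 read there were 0.248 MEST reads in the cow oocyte library (0.213 to 0.288) and 0.00537 at the blastocyst stage (0.00110 to 0.0158).

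In pig both genes had alike profiles. On pig chromosome 18 the MEST entry spans 18291103 to 18351202 and the COPG2 entry 18209245 to 18332216 on the opposite strand, so that 41114 bases, 68.4% of the MEST entry, lie inside COPG2. Pig MEST was at 200.4 RPM in the oocyte library (186 to 216), 207 RPM at 2-4 cells, 225 RPM at 8-16 cells, 28.6 RPM in the morula (23.2 to 35.4) and 65.7 RPM at the blastocyst stage (57.96 to 74.4). Pig COPG2 was at 330 RPM in the oocyte library (311 to 350), 424 RPM at 2-4 cells (405 to 445), 391 RPM at 8-16 cells, 59.3 RPM in the morula (51.2 to 68.7) and 104 RPM at the blastocyst stage (93.9 to 115). Both were high in the first 3 pig libraries, lowest in the morula library and higher again in the blastocyst library. From 8-16 cells to the morula MEST fell 7.86-fold (6.28 to 9.95) and COPG2 fell 6.60-fold (5.63 to 7.76). The number of MEST reads per COPG2 read was 0.608, 0.488, 0.576, 0.483 and 0.633 in stage order, a range that does not contain the cow values. With the overlap and the unstated strand, MEST and COPG2 reads cannot be told apart in pig.

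**Figure D4:**
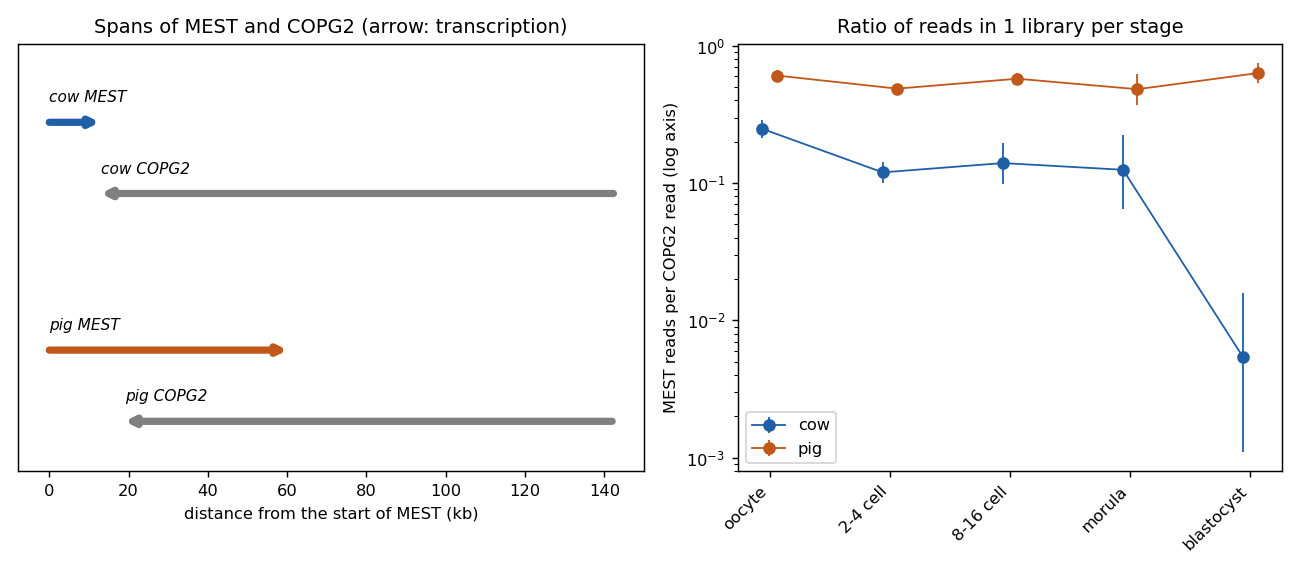
Left, spans of MEST and COPG2 in cow and pig by distance in kb from the start of MEST, with arrows in the direction of transcription; right, MEST reads per COPG2 read (log axis) at each stage in 1 library each, cow in blue and pig in orange, with exact 95% counting intervals. The spans overlap in pig and not in cow, and the pig ratio stays between 0.483 and 0.633 while the cow ratio ends at 0.00537.

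Step by step, no member was called between the oocyte and the 2-4 cell library in either species, beside 0.374% of all compared cow entries (0.196% higher and 0.178% lower) and 5.43% of pig entries (3.26% higher and 2.17% lower). From 2-4 to 8-16 cells 3 cow members fell, PPP1R9A, MEST and COPG2, beside 27.2% of entries called (12.6% higher and 14.6% lower), while in pig PON2 and PON3 rose and none fell, beside 4.87% called (4.33% higher and 0.543% lower). The cow changes of PPP1R9A and MEST at that step were both -2.04, and both missed the threshold under each of the 3 other scalings of the libraries. COPG2, with -2.38, remained called. Under median or non-mitochondrial scaling ASB4 rose in cow at that step, so that 1 member rose and 1 fell. Median scaling moved the median of all cow entries by 0.36. The share of higher entries among all called ones depended on the scaling at the early steps. Under median scaling it went from 52.4% to 24.4% at the first cow step, from 46.5% to 60.6% at the second, from 60% to 77.8% at the first pig step and from 88.9% to 77% at the second. Quantile normalisation gave 22.5% at the first cow step and 63.8% at the second pig step. From 8-16 cells to the morula PON2 rose and PEG10 fell in both species, and in pig MEST and COPG2 fell as well, which makes 2 of 9 compared members called in cow and 4 of 10 in pig. Among all entries 6.67% rose and 5.15% fell in cow, and 12% rose and 11.3% fell in pig. The sign of the change at that step was shared between cow and pig by 9 of 9 members, beside 56.4% of 8420 symbols. The counting intervals of the change spanned both signs for SGCE in both species and for PPP1R9A and CALCR in cow. The counts thus do not settle those signs, and MEST and COPG2 reads cannot be told apart in pig. At the other steps the sign was shared by 2 of 6 members from oocyte to 2-4 cells (45% of symbols), by 4 of 8 from 2-4 to 8-16 cells (52.5%) and by 6 of 9 from morula to blastocyst (64.4%). At the last step PPP1R9A rose and SGCE fell in cow, and PEG10, CALCR and TFPI2 fell in pig. Among all entries 11.9% rose and 11.5% fell in cow at that step, and 13.8% rose and 13.8% fell in pig.

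Lists of genes taken as partners of the members, or lying near them, were compared between oocyte and blastocyst. They are described by counts and medians of log2(RPM + 1) changes, beside the medians of 0.18 and 0.43 over all entries of cow and pig. Of 8 compared cow genes of the sarcoglycan and dystroglycan complex, in which SGCE takes part, 2 fell and none rose, and of 10 compared pig genes 2 rose and 3 fell, with medians of 0.38 and 0.37. SGCD, the delta-sarcoglycan gene, had the largest fall of that list in cow (97.6 to 1.97 RPM) and in pig (181 to 6.70 RPM), and UTRN, the dystrophin relative utrophin, had the largest rise in pig, from 96.2 to 1242 RPM. The list of COPI genes other than COPG2 also holds ARF1, ARFGAP2 and ARFGAP3, which are not coat subunits. Of this list, 4 rose and 1 fell among 11 compared in cow, and 0 of 8 passed the threshold in pig. The medians were 1.151 and 0.85. ARFGAP3, a GTPase-activating protein for ARF1, had the largest rise in cow, from 4.67 to 102 RPM, and COPB1, the beta coat subunit, the fall, from 242 to 46.9 RPM. COPG1, the other gamma subunit gene, rose in cow from 4.06 to 19.6 RPM, opposite to COPG2.

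Of the ubiquitin ligase partners of ASB4, 3 of 6 rose in cow, led by TCEB2, the elongin B gene, from 1.22 to 26.9 RPM. In pig ELOB, the same gene under its other symbol, rose from 0.592 to 15.6 RPM and RNF7, the ring subunit, fell from 74.9 to 16.1 RPM, among 6 compared. The medians were 1.49 in cow and 0.45 in pig, or 0.16 in pig with counts below 3 reads set to 3. Of the protein phosphatase 1 genes around PPP1R9A, 2 of 4 fell in cow, led by the inhibitor gene PPP1R2, from 166 to 22.1 RPM, and 2 of 5 rose in pig, led by the catalytic subunit gene PPP1CA, from 3.26 to 94.4 RPM, with medians of -2.10 in cow and 0.71 in pig, or 0.13 in pig with low counts set to 3 reads. Of the list drawn up around CALCR only 1 gene in cow, ADM, and 2 in pig, ADM and CALCRL, were compared. Whether their products act with CALCR was not tested. ADM, the adrenomedullin gene, did not pass the threshold in cow, and it had the larger rise in pig, from 1 read to 12.3 RPM. The pig median was 3.04, or 2.77 with low counts set to 3 reads, and the cow gene had -0.95. Among genes of clotting and plasmin control, to which TFPI2 belongs, 3 rose and 1 fell of 8 in cow, and 2 rose and 1 fell of 6 in pig, with medians of -0.24 in cow and 1.54 in pig, or 1.26 in pig with low counts set to 3 reads. F3, the tissue factor gene, had the largest fall in cow (469 to 2.89 RPM) and in pig (1919 to 32.4 RPM), while the urokinase gene PLAU had the largest rise in cow, from 1 read to 95.5 RPM, and the protease inhibitor gene SPINT1 in pig, from 7.40 to 127 RPM.

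Other genes derived from retrotransposon Gag sequences were mostly low. Of 5 compared in cow RTL5 rose from 0 reads to 5.92 RPM and PNMA1 fell from 4.46 RPM to 0 reads, and of 3 compared in pig RTL4 fell from 6.51 RPM to 0 reads, with medians of -0.02 and -0.84. Of the list of neighbours of the PEG10 region, 3 rose and 2 fell of 12 in cow, led by the proteasome gene SEM1 (2.03 to 15.2 RPM) and by DYNC1I1. In pig 3 rose and 5 fell of 14, led by the cell cycle kinase gene CDK6 (1.18 to 245 RPM) and by GNGT1, a transducin subunit gene (51.2 RPM to 0 reads). The medians were 0.55 and -1.35. Of the neighbours of MEST, 1 rose and 5 fell of 10 in cow, led by the transcription factor gene NRF1 (4.87 to 36.9 RPM) and by CPA4, a carboxypeptidase gene (5.48 RPM to 0 reads). In pig 2 rose and 2 fell of 11, led by CEP41, a centrosome gene (0.888 to 13.9 RPM), and by SSMEM1 (82.3 RPM to 0 reads), with medians of -1.34 in cow, or -1.26 with low counts set to 3 reads, and -0.90 in pig. Among all entries except members within 1500 kb of the start of MEST, which include genes of this list, the balance differed from that of the list alone. There 6 were higher and 5 lower of 21 in cow, and 7 higher and 3 lower of 22 in pig.

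Genes of other regions that were listed as imprinted had a positive median change, 1.22 over 27 cow genes and 1.37 over 28 pig genes. With counts below 3 reads set to 3 the medians were 0.96 and 0.89. Whether each of these genes, RB1 among them, is imprinted in cow or pig was not tested. In cow 5 of them rose and 3 fell, and in pig 11 rose and 4 fell. The 8 changed cow genes became 15 when scaled to non-mitochondrial gene reads. OSBPL5, a lipid transfer gene, had the largest rise in cow, from 1 read to 11.14 RPM, and RB1, the retinoblastoma gene, the largest fall, from 205 to 4.72 RPM. In pig these were ZDBF2, from 0 reads to 31.1 RPM, and PLAGL1, a paternally expressed zinc finger gene, from 129 RPM to 2 reads.

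The genes whose stage profiles were most like those of the members were sought among 6272 symbols with at least 10 RPM in a library of each species, by the root mean square difference of log2(RPM + 1) over the 10 libraries after centring each profile within its species. For PEG10 these were ARID4A, with a difference of 0.17, DCUN1D4 and RNF2. ARID4A, a chromatin protein gene, went from 616 to 45.9 RPM between the cow oocyte and blastocyst libraries and from 1539 to 69.7 RPM in pig. For MEST they were SUV39H2 (0.23), INPP5B and PHKA2, for COPG2 ZNF652 (0.21) and FAM193A, and for CALCR EPB41L3 (0.26), SULF2 and SEC24D. SUV39H2, a histone H3 lysine methyltransferase gene, was at 226, 163, 54.1, 19.5 and 5.99 RPM in the cow libraries in stage order and at 316, 321, 254, 30.3 and 108 RPM in those of pig. The nearest genes to PPP1R9A were CMIP (0.40), COPG1 and SH3RF1, and those nearest to ASB4 were AEBP2 (0.39), ADK and RYBP. Those nearest to PON2 were GPATCH2L (0.34), FARS2 and COX6C. In pig alone, over 5 libraries, TFPI2 was nearest to ITGA4 (0.24), HHEX and LRIG3, and PON3 to ISG20L2 (0.17), ZNF384 and LRRC4C. In cow alone SGCE was nearest to NEDD1 (0.13), JAKMIP2 and FGD6.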

How the data were processed

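Total RNA of each library was isolated with a column kit for small samples (PicoPure), turned into amplified cDNA (Ovation RNA-Seq System V2) and amplified for 8 PCR cycles, per the labels' protocols. Trim Galore 0.6.4, HISAT2 2.1.0 and the builds UMD3.1 (cow) and Sscrofa11.1 (pig) are named in the submitters' processing notes. The counting tool, gene annotation, strand setting and duplicate handling are not given in the sources used here. The deposited values are on a log2 scale, 1 table per species. Within 0.1 of a read, at least 99.985% of the values above the lowest one in each column were whole multiples of the second lowest, which was taken as 1 read, so they are log2 reads per 1000000 reads of the library, with 0 reads written as 0.9 of a read. Reads in gene entries summed to between 71.7% and 92.7% of the totals. PCR copies are not independent molecules, so intervals and floors cover counting error only.

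Values were raised to the power of 2, and changes were computed as differences of log2(RPM + 1), with 0 reads at 0.9 of a read (Python 3.11.15, numpy 2.4.6, pandas 2.3.3, scipy 1.17.1). This scale makes the changes of low genes look smaller than their ratios, and folds in the text are ratios of RPM, with exact (Clopper-Pearson) 95% intervals on the split of reads, and a fold against 0 reads is a lower bound against 3 reads. Intervals of changes joined the Wilson limits of both libraries. With 1 library per stage there was no test, no p-value and no replicate check. The call rule was also run on simulated data, whose outcome is not given here and cannot replace replicate libraries. The members, lists, thresholds and comparisons were chosen with earlier results of these data known. All members are named, the 3 genes most like a member were taken among symbols with at least 10 RPM (1 of those for COPG2 is not reported here), and of each list the called genes with the largest rise and fall are named; other neighbours of PEG10, COPG1, NANOG, SOX2 and GDF3 were named after their values were seen. Of the members, 10 matched a cow gene symbol in RefSeq (ARS-UCD2.0), which was used for names only. The members were recomputed under 10 other settings, 1 of them chosen after seeing the data, with effects given at the end.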

Additional observations from a re-analysis of the deposited data

Results flagged for a closer look

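Of the members, 3 had a step at which cow and pig moved in opposite directions with both 95% counting intervals leaving out 0. The difference between the species was not tested, since each stage had 1 library. From 2-4 to 8-16 cells PPP1R9A had a change of -2.04 for cow and 0.54 for pig, on the log2(RPM + 1) scale. From the morula to the blastocyst PON3 had a change of 1.01 for cow and -0.84 for pig. At the same step MEST had a change of -1.84 for cow and 1.17 for pig, where most of the MEST span lies inside COPG2, which went up by 0.80.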

How the results depend on the processing

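All 30 called changes of members kept their sign with a pseudocount of 0.5, non-mitochondrial, median or quantile scaling, equal depth, or 0 reads taken as 0, the last chosen after seeing the data, as did all 19 changes of compared members from oocyte to blastocyst. Of the recomputed changes, 43 left their counting interval. Another minimum level or summing repeated symbols cannot alter a change of a member. With a threshold of 1 the number of called members became 1 from the cow oocyte to 2-4 cells (ASB4), 6 from 2-4 to 8-16 cells and 4 from the morula to the blastocyst, and in pig 1 at the first step (TFPI2) and 7 at the last. With a pseudocount of 0.5, or scaled to non-mitochondrial gene reads, ASB4 was called at the first cow step, 1 member in place of 0. Quantile normalisation left 1 called cow member, COPG2, from 2-4 to 8-16 cells. From the cow oocyte to the blastocyst, 2 higher and 4 lower members became 3 and 3 when scaled to non-mitochondrial gene reads, which shifted the median of all genes by 0.42, and 1 and 4 under quantile normalisation, which shifted it by -0.19 (-0.41 for pig). There COPG2 and PON2 were lost and CALCR was gained in cow, and PON2 was lost in pig, which left 7 of 8 called members. PON2, with a cow change of 2.00, and PON3, with 1.96, lie beside the threshold: PON2 was lost under median scaling and quantile normalisation, and PON3 was gained with a pseudocount of 0.5, non-mitochondrial scaling or 0 reads taken as 0. The count of all changed genes moved by more than 1.5 times in 14 of 100 recomputed values, 10 of them with a threshold of 1, and that of the lists in 21 of 200, 12 of them with that threshold. Under non-mitochondrial scaling the others were the cow list of other imprinted genes (8 to 15) and the pig COPI list (0 to 2). The pig TFPI2 partners (3 to 5) moved there too. Under quantile normalisation they were the cow PEG10 neighbours (5 to 3) and the pig CALCR list (2 to 1). The pig PPP1R9A partners (2 to 1) moved there too. The pig COPI list moved with a pseudocount of 0.5 or at equal depth (0 to 1). The cow Gag-derived genes moved with a minimum of 5 RPM (2 to 1). No paired analysis was possible because each stage of each species had 1 library. Values below about 1 RPM rest on few reads, and differences between them were not detectable at this depth.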
